A study of Mus musculus with 2 samples.

Results

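Histones are the proteins around which DNA is wound, and the histone genes of the mouse are of 2 kinds. The replication-dependent genes lie in clusters, carry no introns and are transcribed mainly in S phase, and their mRNAs normally end just after a short stem-loop in place of a poly(A) tail. The replacement variants are single genes, mostly with polyadenylated mRNAs made through the whole cell cycle, that take the place of the cluster histones at particular sites or in particular cells. Cluster histone mRNA is therefore abundant in tissues with many dividing cells, and variants such as H2afx take part in the response to DNA breaks.

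The histone genes were taken as all non-control probes whose gene name on the array starts with Hist1h, Hist2h, Hist3h, Hist4h, H2al, H2af, H1f or H3f. This rule found 92 probes of 71 genes, among 56605 probes and 37074 gene names in all. Of the 71 genes, 56 were cluster histones (68 probes) and 15 were replacement and other single-gene variants (24 probes). These 15 are called variants or replacement variants below. The number of array names starting with H2al was 0. The rule used names alone and no measured value, but it was set with earlier results of these data known.

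The RNA came from UVB-induced skin tumours of male mice, with 1 array for P2ry6-/- and 1 array for P2ry6+/+, so 2 arrays in all. P2ry6 encodes a receptor for extracellular nucleotides. The mice were 2 months old at the start, and both genotypes had the same UVB course, starting at 180 mJ/cm2 and brought by weekly steps of 10 mJ/cm2 to 300 mJ/cm2 in week 22 and held there until week 40. The sources used here give neither the number of animals or tumours behind each RNA nor the way the P2ry6 allele was made. With 1 array per genotype there was no replicate of either, so no test could be made, and every difference below compares these 2 arrays. Values are given as the array's processed signal, a linear brightness on that array's own scale. Differences are given as log2 of knockout-labelled over wild-type-labelled signal after each array was set to its own 75th percentile, and a gene is called at least 2-fold apart from a difference of 1 log2 unit.

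The 75th percentile of the processed signal was 327 on the knockout-labelled array and 347 on the wild-type-labelled array, and 57.9% and 57.8% of the spots were well above background. Both arrays lay on 1 slide and were read in 1 scan. The P2ry6 probes gave 835 and 318 on the knockout-labelled array, against 364 and 137 on the wild-type-labelled array, a gene difference of 1.29. The targeted gene was therefore higher on the array labelled as knockout, and the sources used here do not place its probes relative to the deleted part, so the directions below rest on the labels alone. Cell type markers also differed between the arrays. Of 12 measured macrophage markers 7 were at least 2-fold higher and 1 lower on the knockout-labelled array (median 1.26). Of 9 suprabasal keratinocyte markers 7 were at least 2-fold lower (median -1.37). Over all measured genes 4.8% were at least 2-fold higher and 5.04% lower. The median of 8 basal keratinocyte markers was 0.18, and that of 8 T cell markers was -0.01. The part of cell composition in the differences of the histone genes was not tested, and fewer cells of a type cannot be told apart from less RNA per cell.

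A probe counted as measured if most of its spots passed the scanner software's background test on each array, which held for 73 of the 92 histone probes and for 59 of the 71 genes. The measured genes were 47 of 56 cluster genes and 12 of 15 variants. Another 2 genes passed it on the knockout-labelled array only, 3 on the wild-type-labelled array only, and 7 on neither. Over all genes these one-sided shares were 2.68% and 2.92%, or 5.6% together, against 5 of 71 here. No histone probe was saturated. Of the 92 probes, 20 carry accessions of 2 or more RefSeq genes, 53 of 1 gene and 19 of none, so a value cannot always be given to a single gene of these near-identical families.

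Of the 59 measured histone genes, 67.8% lay within 0.5 log2 units between the tumours, against 66.3% of all measured genes. Of 47 measured cluster genes, 1 was at least 2-fold higher on the knockout-labelled array (Hist1h2ah) and 1 at least 2-fold lower (Hist1h2bc), while 45 were less than 2-fold apart. The Hist1h2bc call was lost after quantile normalization (-0.81), after loess (-0.80) and in the authors' deposited table (-0.81), and the Hist1h2ah call on the spike-in scale (0.59). The share over all 19754 measured genes was 4.8% higher and 5.04% lower, or 9.84% in either direction. Of the 12 measured variants, 0 were 2-fold apart. The cluster genes had a median difference of -0.02 and the variants one of -0.24, against -0.06 over all measured genes, and the cluster median stood 0.22 above the variant median. For scale, single spots of the same probe differed by an SD of 0.12 and measured probes of the same gene by an SD of 0.38. The cluster genes ranged from -1.02 to 1.06, the variants from -0.59 to 0.64, and differences over all measured genes had an SD of 0.65.

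**Figure D1:**
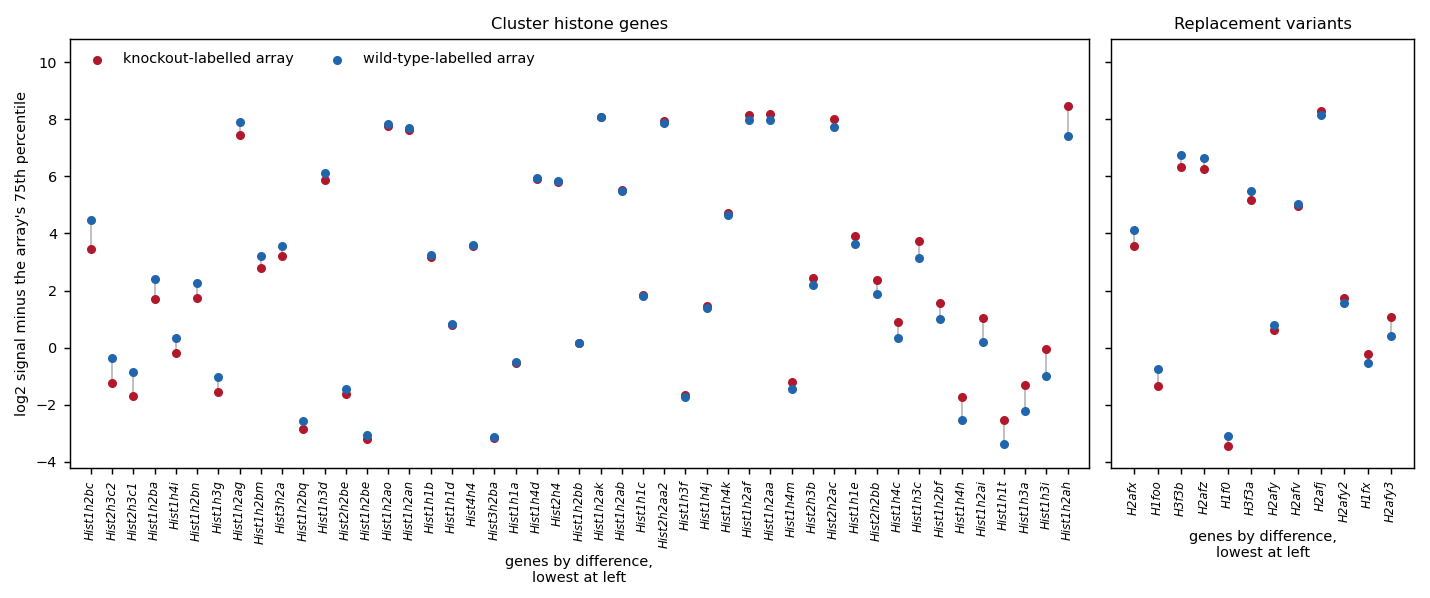
Level of each measured histone gene on the knockout-labelled array (red) and the wild-type-labelled array (blue), in log2 units relative to that array's 75th percentile, with 47 cluster genes at left and 12 replacement variants at right. The grey line joins the 2 arrays of 1 gene and is long for few genes, the longest in each direction being Hist1h2ah (1.06) and Hist1h2bc (-1.02).

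Among the core histones of the clusters, the H2B genes stood lowest. Their median difference was -0.19 over 11 measured genes, with 9 of 11 below 0, where 45.1% of all measured genes lay above 0. Hist1h2bc, an H2B gene whose probe lies at chr13:23784254-23784313 (mm9, plus strand), gave 3609 on the knockout-labelled array and 7753 on the wild-type-labelled array, a difference of -1.02. Hist1h2ba, the testis H2B gene, gave 1056 and 1858, a difference of -0.73. Both genes were thus brighter on the wild-type-labelled array by more than the spread between probes of a gene. Hist1h2bn followed at -0.53 and Hist1h2bm at -0.40. The 2 exceptions above 0 were Hist1h2bf at 0.58 and Hist2h2bb at 0.52, and the probes of both hold the stem-loop motif described further on. The Hist3h2ba probe also holds it and had -0.04. The part of probe kind in the H2B values was not tested.

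The other core families were centred close to 0 but differed in width. The 12 measured cluster H2A genes had a median of 0.04 and the 9 cluster H4 genes one of 0.08. The 9 cluster H3 genes also had a median of 0.08, and theirs was the widest spread of the 5 families, with an SD across genes of 0.70. Within H3 the 6 genes of the Hist1 locus had a median of 0.33 and the 3 of the Hist2 locus one of -0.85. Hist1h3i gave 315 on the knockout-labelled array and 175 on the wild-type-labelled array, a difference of 0.94. Hist1h3a gave 132 and 74.4, a difference of 0.91. In contrast Hist2h3c1 gave 101 and 194, a difference of -0.85, and Hist2h3c2 had a mean difference of -0.90 over 2 probes. The third Hist2 gene, Hist2h3b, gave 1786 and 1588, a difference of 0.25. The kind of probe moved with the locus, since the Hist2h3c1 and Hist2h3c2 probes name no RefSeq gene while those of Hist1h3i and Hist1h3a hold the stem-loop described further on. Hist1h3g, also with the stem-loop, had -0.50, and locus and probe kind cannot be told apart with these few genes. The H4 genes ranged from -0.54 (Hist1h4i) to 0.80 (Hist1h4h), and Hist1h4h was dim, at 98.7 on the knockout-labelled array and 60.1 on the wild-type-labelled array.

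The linker histones of the H1 family, which bind the DNA between nucleosomes, had a median of 0.00 over 6 cluster genes. The testis linker histone Hist1h1t gave 56.8 on the knockout-labelled array and 33.6 on the wild-type-labelled array, a difference of 0.84 between dim signals. The somatic linker genes Hist1h1a, Hist1h1b and Hist1h1d lay at -0.04, -0.07 and -0.06, and Hist1h1e at 0.29. By locus, the median was 0.00 over 36 Hist1 genes and 0.02 over 8 Hist2 genes.

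**Figure D2:**
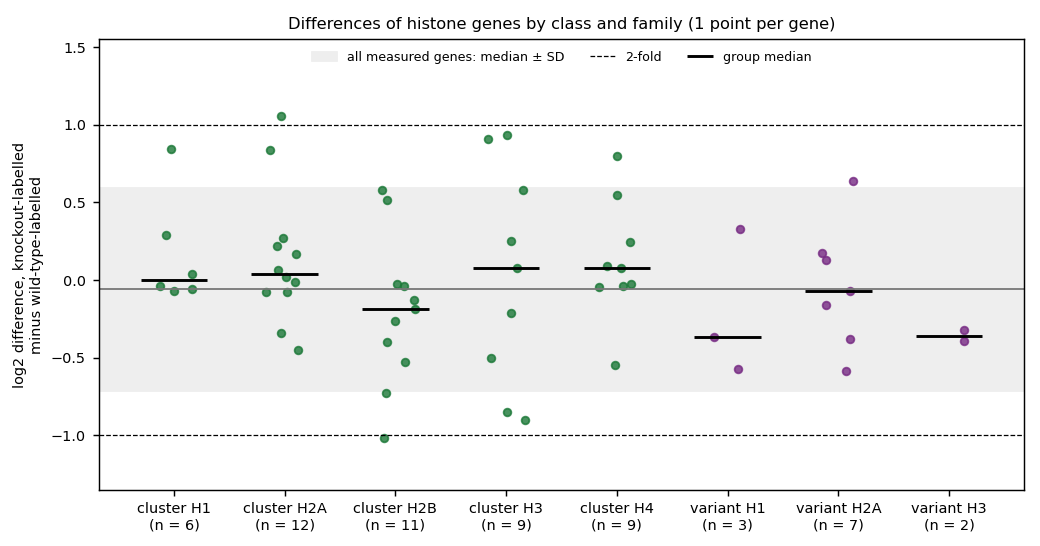
Log2 difference of each measured histone gene, knockout-labelled minus wild-type-labelled, by class and family, with group medians as black bars, the 2-fold lines dashed and the median ± SD of all measured genes as a grey band. Cluster H2B (median -0.19) and the variant H1 and H3 genes lie lowest, and only Hist1h2ah and Hist1h2bc pass a 2-fold line.

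Hist1h2ah, an H2A gene, was the 1 cluster gene called higher. Its probe, at chr13:22127035-22127094 (mm9, minus strand), gave 116421 on the knockout-labelled array and 59337 on the wild-type-labelled array, and its accessions name 4 RefSeq H2A genes. H2A coding sequences are nearly the same in many copies, so this value was set beside those of the other H2A probes. The 60-base probe shares a run of 25 to 44 bases with 9 other H2A probes. Their differences ran from -0.45 (Hist1h2ag) to 0.27 (Hist2h2ac) with a median of 0.06, so none of the 9 came near the difference of 1.06. On the knockout-labelled array these 9 probes gave 57634 to 102621, and on the wild-type-labelled array 72507 to 99448. The call therefore rests on 1 spot per array of a probe whose near neighbours in sequence did not share it, and its cause was not tested. Of the 4 genes named, H2ac13 is also named by the Hist1h2ai probe, whose shared run was only 14 bases. That probe gave 671 on the knockout-labelled array and 398 on the wild-type-labelled array, a difference of 0.84. Hist1h2ak also names H2ac13 and had -0.01, and Hist1h2an, which names H2ac7, had -0.08. The sequences of 7 of the 9 probes with runs of 25 to 44 bases are shown from the deposited files, beside that of Hist1h2ah, to let the overlap be seen. In each, capitals mark bases that differ from the Hist1h2ah probe over the stretch aligned without gaps, and bases beyond it are in lower case. A difference in length can therefore put capitals on bases that would match if a gap were allowed.
Hist1h2ah: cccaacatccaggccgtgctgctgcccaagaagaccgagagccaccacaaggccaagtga
Hist1h2aa: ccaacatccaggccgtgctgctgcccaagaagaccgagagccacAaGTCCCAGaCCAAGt
Hist2h2ac: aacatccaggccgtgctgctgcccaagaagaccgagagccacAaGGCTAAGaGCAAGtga
Hist1h2af: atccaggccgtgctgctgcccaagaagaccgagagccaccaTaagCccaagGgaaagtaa
Hist1h2ak: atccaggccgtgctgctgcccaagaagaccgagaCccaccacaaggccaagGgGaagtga
Hist1h2an: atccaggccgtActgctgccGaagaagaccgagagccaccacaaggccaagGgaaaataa
Hist2h2aa2: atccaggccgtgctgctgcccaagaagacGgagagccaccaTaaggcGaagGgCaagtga
H2afj: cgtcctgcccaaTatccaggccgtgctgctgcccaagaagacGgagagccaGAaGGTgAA

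**Figure D3:**
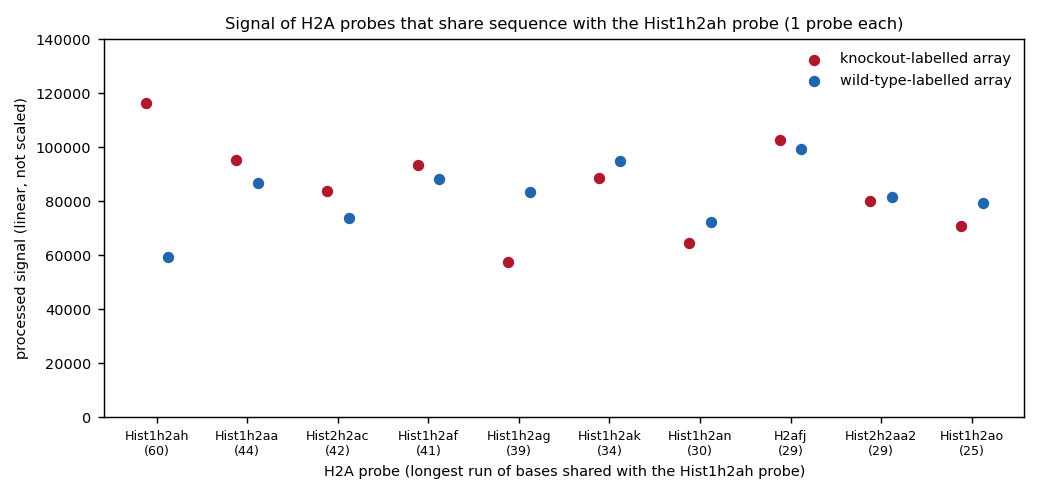
Processed signal of the Hist1h2ah probe and of 9 other H2A probes on the knockout-labelled array (red) and the wild-type-labelled array (blue), in order of the longest run of bases shared with the Hist1h2ah probe, which stands in brackets. The Hist1h2ah probe gave 116421 and 59337, while the differences of the other 9 ran from -0.45 to 0.27.

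Within this set Hist1h2ag gave 57634 on the knockout-labelled array and 83514 on the wild-type-labelled array, a difference of -0.45, which exceeds the SD between probes of a gene. Other probes of the set differed by less than that SD. Hist1h2aa, the testis H2A gene, gave 95428 on the knockout-labelled array and 86993 on the wild-type-labelled array, a difference of 0.22. Hist1h2af gave 93506 and 88231, a difference of 0.17, and Hist1h2ak gave 88549 and 94805, a difference of -0.01. Given the shared runs, the signal of a testis gene name such as Hist1h2aa cannot be told apart from that of the somatic H2A genes here.

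Of the 12 measured replacement variants, 8 lay below 0 and 4 above, or 33.3% above against 45.1% of all measured genes. The H3 variant genes H3f3a and H3f3b encode the same replication-independent H3 protein, laid down at active genes, and both were lower on the knockout-labelled array. The 2 measured H3f3b probes gave 35124 and 20153 on the knockout-labelled array, against 46899 and 29267 on the wild-type-labelled array, with differences of -0.33 and -0.45. The 2 measured H3f3a probes gave 6652 and 21156, against 8164 and 30387, with differences of -0.21 and -0.44. All 4 probes lay below 0, although the accessions of the H3f3a probes also name the RefSeq gene Gm12657. The gene means were -0.39 for H3f3b and -0.32 for H3f3a. Both kept their sign but were smaller in size after quantile normalization (-0.19 and -0.12), after loess (-0.21 and -0.12) and in the authors' deposited table (-0.22 and -0.13). Without a filter on dim probes H3f3a had -0.63.

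H2afx encodes H2A.X, which is phosphorylated around DNA breaks, and gave 3830 on the knockout-labelled array and 6100 on the wild-type-labelled array. Its difference was -0.59, but -0.35 after quantile normalization, -0.37 after loess and -0.36 in the authors' deposited table, where that of H1foo was lower (-0.59, -0.61 and -0.60). H2afz encodes H2A.Z, found at promoters, and its probe is printed at 10 spots per array. Over the 9 spots kept, the knockout-labelled signals ran from 23666 to 26257 with a median of 25374, and the wild-type-labelled ones from 25761 to 37829 with a median of 36201. The spot differences averaged -0.39 ± 0.14 (SD over 9 spots of 1 array pair), and all 9 were below 0, the smallest in size being -0.04. The probe's difference of -0.38 was -0.20 after quantile normalization, -0.19 after loess and -0.21 in the authors' deposited table. The spot error is thus smaller than this difference, but it holds no variation between tumours. Hist1h4d, an H4 cluster gene, has a probe printed 10 times too, and its spot differences averaged 0.03 ± 0.06 with 4 above 0 and 6 below. H2afv, the second H2A.Z gene, gave 10257 and 11436, a difference of -0.07, smaller than that of H2afz.

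The macroH2A genes, whose large variants are linked to silent chromatin, lay on both sides of 0. H2afy had 5 measured probes, which gave differences from -0.34 to -0.06 and a gene mean of -0.16. The probe at -0.06 lies on the plus strand and names no RefSeq gene, while the other 4 lie on the minus strand and each name 1. H2afy2 gave 1090 on the knockout-labelled array and 1022 on the wild-type-labelled array, a difference of 0.18. H2afy3 gave 684 and 465, a difference of 0.64 (0.17 on the spike-in scale). H2afj, an H2A variant whose probe is in the set printed above, gave 102621 and 99448, a difference of 0.13.

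The linker variants also lay on both sides of 0. H1f0, the linker histone of cells that have stopped dividing, gave 29.9 on the knockout-labelled array and 41.0 on the wild-type-labelled array, a difference of -0.37. H1foo, the oocyte linker histone, gave 130 and 205, a difference of -0.57. H1fx had a mean difference of 0.33 over 2 probes. The H1f0 signals were near the lowest signal well above background, which was 17.4 on the knockout-labelled array and 17.7 on the wild-type-labelled array.

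The 5 genes above background on 1 array only allowed bounds, taken against the higher of the dim probe's own level and the lowest level well above background. H1fnt, a spermatid linker histone, gave 27.5 on the knockout-labelled array and 11.1 on the wild-type-labelled array, which is at least 1.65-fold higher. Hist2h2ab, with 19.4 and 6.58, was at least 1.16-fold higher. In the other direction Hist1h2bg, with 13.3 and 34.8, was at least 1.89-fold lower, Hist1h2ae at least 1.54-fold and Hist3h2bb-ps at least 1.13-fold. None of the 5 bounds reached 2-fold. Among all genes seen on the knockout-labelled array alone 22.9% had such a bound, and among those seen on the wild-type-labelled array alone 24.5% did. The genes above background on neither array were Hist1h2ac, Hist1h2ad, Hist1h2al, Hist1h2bp, Hist2h2aa1, H2afb1 and H2afb2. The accession of the H2afb1 probe names the RefSeq gene H2al2a.

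Several histone genes had probes that disagreed. Measured by at least 2 probes were 11 histone genes, and in 4 of them the probes stood on both sides of 0. These were Hist1h1c, Hist1h2bb, Hist1h4d and Hist3h2a. The share of such genes among all 6772 genes with at least 2 measured probes was not computed. It is therefore not known whether the count is particular to histones. In Hist1h4d the probes differed little, at -0.10 and 0.03. Hist1h1c was the clearest. Its upstream probe gave 1021 on the knockout-labelled array and 569 on the wild-type-labelled array, a difference of 0.93, while a probe 688 bases further downstream gave 1380 and 2639, a difference of -0.85. The gene mean of 0.04 therefore describes neither probe. In Hist3h2a the upstream probe had a difference of 0.04 and one 567 bases further on had -0.72. In Hist1h2bb the probes had 0.46 and -0.50, and the accessions of the second name 4 RefSeq genes.

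The upstream Hist1h1c probe ends in the stem-loop of the replication-dependent mRNA, and the downstream one carries no accession of a RefSeq gene. The probes were therefore grouped by a stem-loop motif, AAAGGC followed after any 2 bases by TT and after any 1 base by T, read on the probe strand. This grouping was chosen after these values were seen. The motif stood in 11 cluster probes of 11 genes, all measured. Of these, 9 lay above 0, against 45.9% of all measured probes, with a median of 0.58 and a range from -0.50 (Hist1h3g) to 0.94 (Hist1h3i). The 38 measured cluster probes without the motif that name a RefSeq gene had a median of -0.03. The 5 measured cluster probes that name no RefSeq gene all lay below 0, from -0.98 to -0.72, and belong to Hist2h3c2, Hist1h1c, Hist2h3c1 and Hist3h2a. The measured variant probes that name none did not share this, with 0.24 for H1fx and -0.06 for H2afy. The motif stood in 0.0654% of all probes on the array, and in 0.0671% when read on the other strand. The letters alone therefore do not mark a histone stem-loop in a probe of another gene. The 14 measured probes of other genes with the motif had a median of -0.24, with 6 above 0. The stem-loop probes shared no single family, since they came from H1, H2A, H2B, H3 and H4 genes. The cause of these differences was not tested, and the sources used here do not name the primer of the linear amplification. The 30 bases around the motif are shown for 4 of these probes, with the motif in capitals, to compare the highest, the lowest and 2 between them.
Hist1h3i: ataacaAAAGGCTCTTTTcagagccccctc
Hist1h1c: gcctcccctaacaatccaAAAGGCTCTTTT
Hist1h4m: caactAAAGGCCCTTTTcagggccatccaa
Hist1h3g: cactttAAAGGCTCTTCTtagagccaccca

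Of the genes shown, Hist1h3i and Hist1h1c had differences of 0.94 and 0.93. Hist1h4m gave 143 on the knockout-labelled array and 128 on the wild-type-labelled array, a difference of 0.25. Hist1h3g gave 113 and 169, a difference of -0.50. Among the brighter stem-loop probes, Hist1h2ai gave 671 and 398, a difference of 0.84, and Hist1h2ab gave 14989 and 15667, a difference of 0.02.

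**Figure D4:**
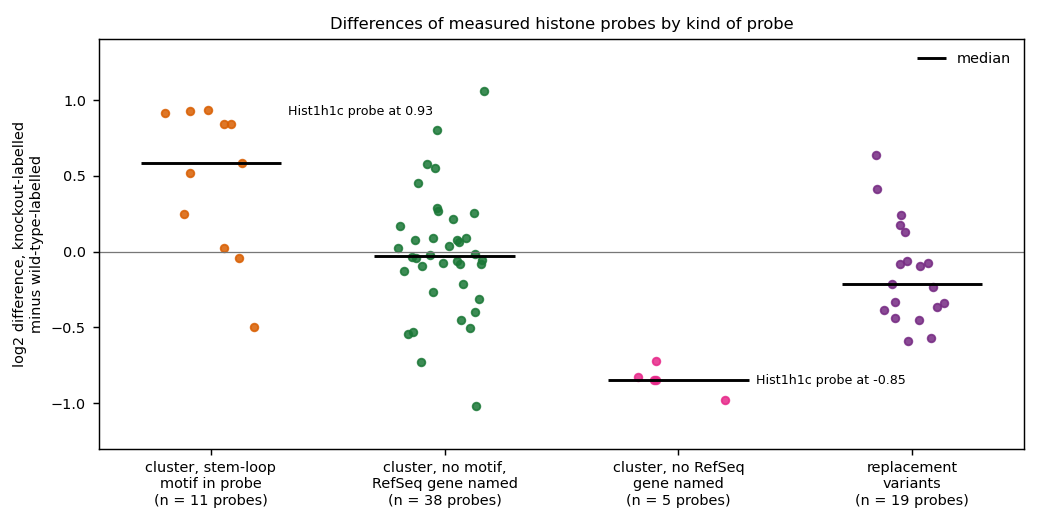
Log2 difference of each measured histone probe, knockout-labelled minus wild-type-labelled, with medians as black bars, for cluster probes with the stem-loop motif, cluster probes without it that name a RefSeq gene, cluster probes that name no RefSeq gene, and variant probes. The first group has a median of 0.58, the third one of -0.85, and Hist1h1c has a probe in each.

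Promoters of cluster histone genes share short motifs, of which the octamer ATTTGCAT is known from H2B genes. Of the 71 histone genes, 62 had a promoter in RefSeq (GRCm38.p6), and the 250 bases before the start were searched on both strands. The octamer stood in 45.5% of the cluster H2B promoters and 41.2% of the cluster H2A promoters, in 7.69% of variant promoters and in 1.61% of all 27025 promoters. None of the cluster H1, H3 and H4 promoters held it. The motif CCAAT stood in 83.7% of cluster, 53.8% of variant and 34.5% of all promoters, and TATAAA in 49.0%, 7.69% and 13%. Cluster H2B genes with the octamer had a median difference of -0.21 and those without it one of -0.13. Cluster H2A genes with the octamer had 0.22 and those without it -0.01. Among the cluster H3 genes the medians with and without TATAAA were 0.36 and -0.50, and with and without CCAAT 0.25 and -0.87, over 7 promoters in all. The H3 genes without CCAAT were Hist2h3c1 and Hist2h3c2, whose probes name no RefSeq gene. Neighbouring genes on opposite strands can share the bases searched, so the same octamer can count for both an H2A and an H2B gene. These groups are small, and a link between letters and differences was not tested. A pair of H2B promoters on opposite sides of 0 are shown, with ATTTGCAT and TATAAA in capitals. The first is Hist1h2ba (chr13:23934221-23934340, minus strand, difference -0.73). Its printed bases also lie in the stretch searched for the H2A gene Hist1h2aa (plus strand, difference 0.22). The second is Hist2h2bb (chr3:96269580-96269699, plus strand, difference 0.52).
Hist1h2ba: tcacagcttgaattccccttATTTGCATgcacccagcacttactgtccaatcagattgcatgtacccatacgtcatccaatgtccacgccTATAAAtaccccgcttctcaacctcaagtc
Hist2h2bb: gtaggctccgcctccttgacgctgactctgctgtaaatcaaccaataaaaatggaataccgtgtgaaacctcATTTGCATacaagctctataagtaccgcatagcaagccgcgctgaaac

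The genes around histone synthesis were described from lists, in which Mcm2 and Slbp each stand in 2. Of 34 measured S phase genes, which include the replicative helicase and ribonucleotide reductase, 0 were 2-fold apart and 27 lay below 0, with a median of -0.25. Ccna2 had a difference of -0.73, Rrm1 -0.72 and Cdt1 0.84. The 19 mitosis genes all lay below 0 with a median of -0.65, and 5 were at least 2-fold lower. Over all measured genes 45.1% lay above 0, 4.8% were at least 2-fold higher and 5.04% lower. Cdc20, the activator of the anaphase-promoting complex, gave 1855 on the knockout-labelled array and 4582 on the wild-type-labelled array, a difference of -1.22. Cdk1, Tpx2, Ube2c and Cenpa followed at -1.02, -1.02, -1.01 and -1.01, and Cenpa encodes the H3 variant of centromeres, which the naming rule does not take in. The cluster histone median of -0.02 thus lay above that of either list, and a difference between these lists was not tested.

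Of 14 genes of histone mRNA 3' end processing, 0 were 2-fold apart, with a median of -0.14. Slbp, which binds the stem-loop, gave 220 on the knockout-labelled array and 269 on the wild-type-labelled array, a difference of -0.20. Ncbp1 had -0.45, Cpsf2 -0.42, Lsm10 0.38 and Upf1 -0.37. Of 25 measured histone chaperones, 1 was at least 2-fold lower and 0 higher, with a median of -0.04. That gene was Asf1b, the H3-H4 chaperone of dividing cells, which gave 546 and 1206, a difference of -1.06. Nap1l4 had 0.68, Anp32e, a chaperone that removes H2A.Z, -0.64, and Npm1 -0.48. Of 33 histone modifying enzymes 0 were 2-fold apart, with a median of 0.02, and the widest were Hdac2 at 0.74, Ezh2 at 0.70, Kdm6b at -0.46 and Hdac6 at 0.41.

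The H2al1 genes, a family of H2A variants that in mouse testis are made in spermatids, carry other names on the array (such as Gm14484) and so lie outside the naming rule. They were found through RefSeq accessions and are given here after their values were seen. All 8 H2al1 probes lie on the X chromosome. On the knockout-labelled array they gave 17.3 to 215, with 7 of 8 above background, and on the wild-type-labelled array 3.68 to 17.8, with 0 of 8 above background. The ranges overlapped only between 17.3 and 17.8, and each of the 8 probes was brighter on the knockout-labelled array. Over all genes on the array, 2.68% were above background on the knockout-labelled array only, which is a share of genes and not of probes. Of all probes measured on both arrays, which the H2al1 probes were not, 45.9% had a difference above 0. The probe for H2al1e gave 215 and 9.90, at least 12.9-fold higher, that for H2al1m 122 and 17.8, at least 7.26-fold, and that for H2al1c 108 and 8.45, at least 6.49-fold. H2al1a (at least 5.74-fold), H2al1n (3.08) and H2al1o (2.22) also had bounds over 2-fold. Of the 28 pairs among these probes, 3 shared a run of 20 or more bases, the longest of 55, and several name more than 1 RefSeq gene, so the 8 values are not independent. The related H2al2b probe on the Y chromosome gave 37.6 and 43.4, a difference of -0.12, and H2al3 was above background on neither array. Of 12 germ cell markers 1 was measured on both arrays, Prm2 at 31.0 and 29.3. A further 2, Tex14 and Tnp1, passed the background test only on the wild-type-labelled array, the opposite one to the H2al1 probes, and 0 only on the knockout-labelled array. Their part in the H2al1 signals was not tested further.

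The order of the classes was set beside other ways of scaling. The cluster median lay above the variant median under each of 10 alternatives, by 0.04 to 0.29, and under 3 more chosen after seeing the data. Its sign was less stable, with 0.17 after quantile normalization, 0.16 after loess and 0.18 in the authors' deposited table. Scaling to the 8 spike-in control probes moved every difference by -0.47, and the cluster median was then -0.49 and the variant median -0.71, with all genes at -0.53.

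**Figure D5:**
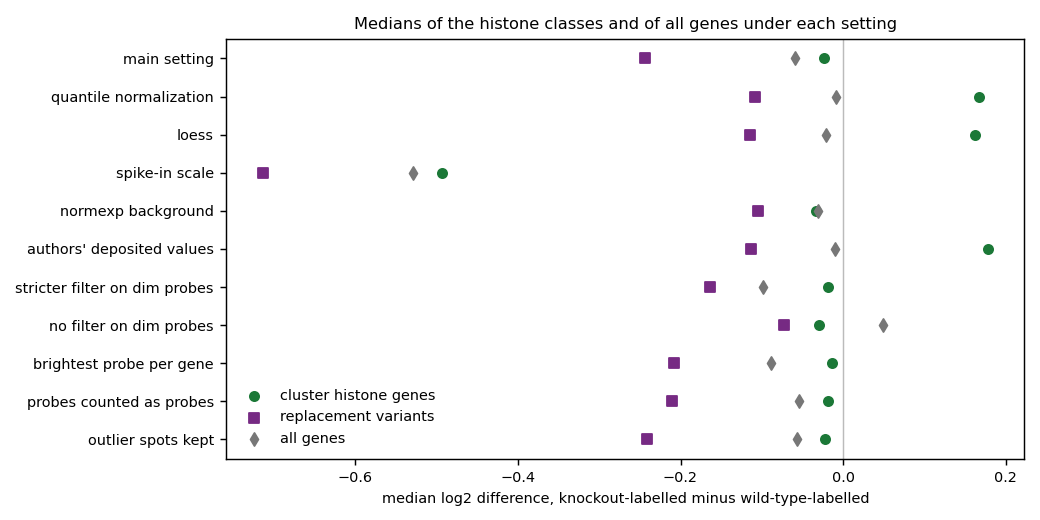
Median log2 difference, knockout-labelled minus wild-type-labelled, of cluster histone genes (green circles), replacement variants (purple squares) and all genes (grey diamonds) under each setting. The cluster median lies right of the variant median in every row, by 0.04 to 0.29, while the position of all 3 against 0 shifts with the scale.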

How the data were processed

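Total RNA of 1 tumour sample per genotype (2 arrays) was hybridised to 1-colour Agilent arrays from 0.2 µg of RNA, per the labels' protocols. Per the file headers the authors extracted spot intensities in Agilent Feature Extraction 10.7.1.1; background was subtracted and no scaling between arrays applied. The deposited table of log2 values, whose normalization the sources used here do not state, served only as an alternative. From the intensities, log2 processed signal was averaged over the spots of a probe (outlier spots left out) and set to each array's 75th percentile, then averaged over the measured probes of a gene. Probe positions are in mm9, per the file headers. The differences hold no error between tumours. Alternatives used limma 3.58.1 (R 4.3.3) for normexp with offset 50, quantile and loess. Gene and probe steps were tested on simulated data. Members, lists and named genes (all variants, the 6 lowest and highest cluster genes, the 4 brightest, probes that disagree and up to 4 genes per list) were chosen with earlier results of these data known. A gene that the naming rule selected from the lists is not reported here.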

Additional observations from a re-analysis of the deposited data

How the results depend on the processing

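Of the 525 single-gene differences recomputed, 65 moved by more than the SD between probes of a gene, 59 of them on the spike-in scale. A change of direction was counted only for the genes 2-fold apart, Hist1h2ah and Hist1h2bc, and 0 were found. Smaller differences could change sign. That of H1fx was 0.33 but -0.14 on the spike-in scale, and that of H1f0 was -0.37 but 0.10 without a filter. The cluster median was 0.17 after quantile normalization, 0.16 after loess, 0.18 in the authors' deposited table and -0.49 on the spike-in scale. The variant median was -0.11 after quantile normalization, after loess and in the authors' deposited table, -0.10 with normexp, -0.072 without a filter and -0.71 on the spike-in scale. The cluster median exceeded it by 0.071 with normexp and by 0.042 without a filter. Cluster genes at least 2-fold lower numbered 0 after quantile normalization, after loess and in the authors' deposited table. Hist1h2bc stood at -0.81, -0.80 and -0.81 under these. Such cluster genes numbered 6 of 47 on the spike-in scale and 4 of 56 without a filter. Over all genes on the spike-in scale, 3184 of 19754 were at least 2-fold lower and 312 higher. Without a filter, 2118 of all 37070 genes were lower and 2216 higher. Cluster genes at least 2-fold higher numbered 0 on the spike-in scale and 2 without a filter. Counting H2A probes that share a run once, or leaving out probes that name 2 or more RefSeq genes, both chosen after seeing the data, gave 0 in place of 1. Variants 2-fold apart numbered 2 of 12 on the spike-in scale and 2 of 15 without a filter. On the spike-in scale the stem-loop probes had a median of 0.11, with 7 of 11 above 0, and the cluster probes naming no RefSeq gene had -1.32, or -0.71 with normexp. Of the H2al1 bounds of at least 2-fold, 4 to 6 were found under the alternatives that give them; for the filters and the rules on probes of one gene they were not run. Leaving out the stem-loop probes, also chosen after seeing the data, gave a cluster median of -0.05, which was 0.20 above the variant median. The causes were not tested. A stricter filter, the brightest probe, probes counted as probes and outlier spots kept changed no class median beyond the SD between spots. Dim signals limit the H2al1, Hist1h1t, H1f0 and Hist1h4h values. No paired analysis was possible because each genotype has 1 array.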
